A study of Glycine max with 4 samples.

Results

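A stretch of soybean chromosome 14 gave very low hybridization signal in 1 of 4 fast neutron mutant plants, plant 39 of line P05, and is described here with its flanks as a putative deletion. The window taken was 13.8 to 15.2 Mb of chromosome 14 on Glyma.Wm82.a2.v1, the genome version from which the array was designed. It held 566 of the 951615 probes of the array. Of these, 434 lay left of the low stretch, 84 within it and 48 right of it. The window was selected because ratios measured on these arrays were low there, so the ratios of plant 39 in it are given as a description, and the fits of line P05 below, which contain plant 39, are no independent test of them.

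The study compared leaf DNA of mutant soybean (Glycine max) plants with that of “M92-220”, called M92-220-Long in the labels, by array comparative genomic hybridization (aCGH). The tested plants were CM7F040P05 plants 39 and 15 and CM7F040P06 plants 35 and 45, here called lines P05 and P06, and each was set against “M92-220”, the wild-type parent. The paper lists a name ending in CM7F040P06 among those given to plants in the lineage of its high-sucrose/low-oil mutant. All 4 plants descended from fast neutron irradiated seed of “M92-220” by repeated selfing, and the methods place plants of the mutant family several generations after the irradiation. Each array held the DNA of 1 plant, so plant and array cannot be told apart, and plant ages were not given in the sources used here.

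Fast neutrons break DNA, and breaks that are joined with a segment missing leave deletions, which the progeny can inherit. A plant that still carries a deletion on 1 of the homologous chromosomes has selfed progeny with and without it, so sister plants of a line can differ. In aCGH the mutant DNA carries one dye (here Cy3) and the wild-type DNA another (here Cy5), and both compete for short probes of known position. The value of a probe is the log2 ratio of the Cy3 signal to the Cy5 signal, which is near 0 where both DNAs hold the sequence. Where the sequence is missing on both homologs, no mutant DNA should bind, and the Cy3 signal that remains comes from background and from related sequence elsewhere in the genome. A low ratio then has a floor set by the scanner, and its size depends on how bright the probe is in the wild type.

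Across the arrays, the median processed signal was 1034 to 1054 in Cy3 and 1042 to 1054 in Cy5. Cy3 was well above background, by the scanner software's own test, at 98.7% of the spots for plant 39 and at 99.2% for each of the other plants. The software's measure of noise, the spread of differences between neighboring probes in log2 units, was 0.144 for plant 39 and 0.133 to 0.173 for the other plants. All 4 mutants were labeled with Cy3, and no dye swap was made, so a ratio can also hold what a probe owes to its dyes. The probe sequences were not used here, and no gene in the window is named because an annotation of this genome version was not used here.

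The low stretch of plant 39 ran from chr14:14337661-14594509, which is 257 kb from the first to the last low probe. A search for intervals of high score, built after the ADM-2 algorithm that the methods name, called 3 intervals there with a mean ratio at or below -2. The left interval, chr14:14337661-14358593, held 15 probes with a mean of -5.41. The middle interval, chr14:14399115-14411843, held 4 probes with a mean of -2.96. The right interval, chr14:14414028-14594509, held 57 probes with a mean of -4.39. These intervals took in 76 of the 84 probes, and the other 8 lay between them. The same search called 0 regions in the window in plants 15, 35 and 45. The 3 intervals were one region of 84 probes when the mean required was -1, so the number of intervals is not a count of deletions.

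Over the 84 probes, the mean log2 ratio was -4.22 in plant 39 (SD over probes 1.96, median -4.32, from -7.97 to -0.20). It was 0.047 in plant 15, 0.074 in plant 35 and 0.101 in plant 45, and the SDs over probes were 0.218, 0.215 and 0.243 in that order of plants. The SD of the means of plants 15, 35 and 45 was 0.027. Plant 39 had the lowest ratio of the 4 plants at 84 of 84 probes. Over plants, the mean of the stretch was -2.09 ± 3.02 in P05 and 0.088 ± 0.019 in P06 (SD, n = 2 each), and the large SD of P05 is the difference between its plants. With the normexp background correction, which adds an offset to both signals, the mean of plant 39 was -2.02 and 42 of its window probes were at or below -2, against -4.22 and 70 from the processed signals.

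At or below -2 lay 70 probes of the window in plant 39, all of them inside the low stretch, against 0 in plants 15, 35 and 45. Over the whole array, 0.0418% of the probes were at or below -2 in plant 39, 0.0581% in plant 15, 0.133% in plant 35 and 0.134% in plant 45. In plant 39, 398 probes of the array were at or below -2, and the window held 17.6% of them and 70 of the 89 that lay on chromosome 14. At or below -3 were 58 probes of plant 39, and at or below -1 were 79. Plant 39 was more than 1 below every other plant at 78 of the 84 probes and at 0 of the 482 flank probes, which was so at 0.0752% of all probes. The window was selected for this contrast, so the shares over the array are given for scale only. Just inside the threshold of -2 lay Gm_CUST_P12256304 at -2.24, and just outside it lay Gm_CUST_P12256191 at -1.999.

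**Figure D1:**
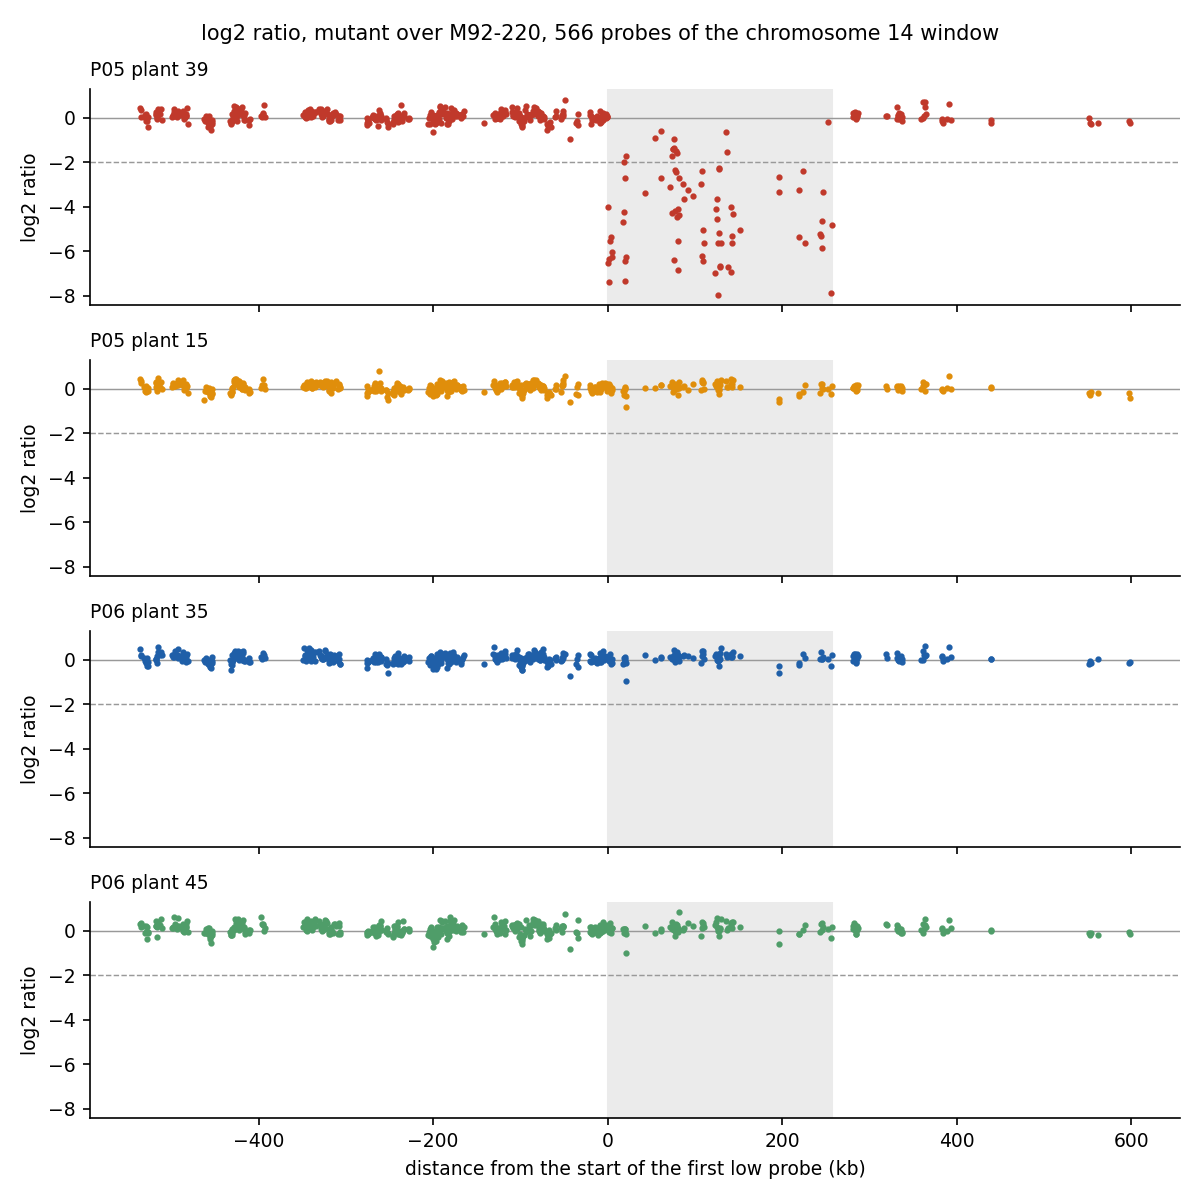
Log2 ratio of mutant over M92-220 (vertical axis) for the 566 probes of the window against distance in kb from the start of the first low probe, with 1 panel per plant and 1 point per probe; gray marks the low stretch and the dashed line a ratio of -2. In plant 39, 70 probes lie at or below -2 inside the gray area, and the panels of plants 15, 35 and 45 have 0 there.

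The left end was sharp at the resolution of the probes. The last 3 probes before it had the ratios of the unaffected flank in every plant. At Gm_CUST_P12256127 (chr14:14336542-14336601) the log2 ratio was 0.04 in plant 39, -0.12 in plant 15, 0.11 in plant 35 and 0.22 in plant 45. At Gm_CUST_P12256129 (chr14:14336865-14336924) it was 0.01 in plant 39, 0.21 in plant 15, 0.13 in plant 35 and 0.17 in plant 45. At Gm_CUST_P12256130 (chr14:14337173-14337232) it was 0.07 in plant 39, 0.04 in plant 15, 0.13 in plant 35 and 0.08 in plant 45. At the first and the last of these, plant 39 lay within the range of the other plants, and at the one between them just below it.

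The next probe, 428 bp further on, was the first low one. Gm_CUST_P12256133 (chr14:14337661-14337720) had a log2 ratio of -6.51 in plant 39, 0.12 in plant 15, 0.11 in plant 35 and 0.10 in plant 45. Its processed Cy3 signal in plant 39 was 10.1 against 922 for the Cy5 signal of “M92-220” on the same array. Gm_CUST_P12256135 (chr14:14338201-14338253) had -4.01 in plant 39, 0.08 in plant 15, 0.10 in plant 35 and 0.02 in plant 45. Gm_CUST_P12256137 (chr14:14339031-14339090) had -6.34 in plant 39, 0.20 in plant 15, 0.15 in plant 35 and 0.23 in plant 45. Plant 39 fell by several log2 units between neighboring probes at this end, and the other plants stayed near 0.

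The right end was placed less closely, because the array has no probe over 24.1 kb there. Gm_CUST_P12256386 (chr14:14589498-14589557), the third probe from the end, was hardly low: its ratio was -0.20 in plant 39, -0.03 in plant 15, 0.05 in plant 35 and 0.06 in plant 45. Gm_CUST_P12256389 (chr14:14593199-14593258) followed with -7.89 in plant 39, -0.24 in plant 15, -0.26 in plant 35 and -0.32 in plant 45. At the outer edge, the last low probe, Gm_CUST_P12256390 (chr14:14594451-14594509), had -4.83 in plant 39, 0.11 in plant 15, 0.22 in plant 35 and 0.15 in plant 45. So the outermost pair of probes carries the position of this end, with a probe near 0 just inside it.

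Beyond the gap the ratios of plant 39 were back near 0. Gm_CUST_P12256395 (chr14:14618645-14618699) had 0.05 in plant 39, 0.05 in plant 15, 0.18 in plant 35 and 0.22 in plant 45. Gm_CUST_P12256397 (chr14:14619143-14619202) had 0.21 in plant 39, 0.04 in plant 15, -0.05 in plant 35 and 0.09 in plant 45. Gm_CUST_P12256398 (chr14:14619640-14619699) had 0.18 in plant 39, 0.01 in plant 15, 0.25 in plant 35 and 0.33 in plant 45. With the gaps on both sides included, the longest stretch the probes allow was chr14:14337233-14618644, or 281 kb. Under 4 of the alternatives the span ended at the group of probes before the last one and was 247 kb.

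Averages over 10 probes on each side of each end gave the same picture. In plant 39 the 10 probes left of the left end averaged 0.093 and the 10 inside it -5.64, while the 10 inside the right end averaged -4.53 and the 10 right of it 0.089. In plant 15 these means were 0.115, 0.016, 0.009 and 0.037. In plant 35 they were 0.133, 0.013, 0.090 and 0.057, and in plant 45 they were 0.202, 0.093, 0.087 and 0.107. In the plants other than plant 39, these means thus lay between 0.009 and 0.202 on both sides of both ends, and the SD over the 10 probes was 0.078 to 0.192. The step between the inside and the outside was not tested in any plant.

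**Figure D2:**
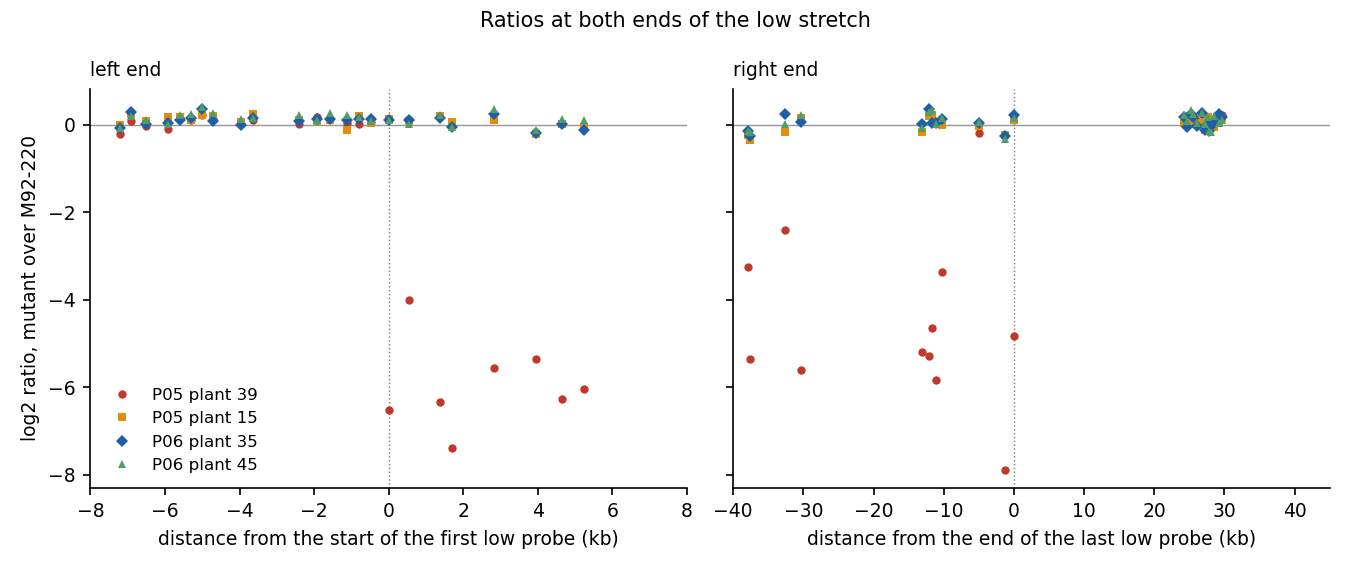
Log2 ratio of mutant over M92-220 (vertical axis) for the probes near the left end (left panel) and the right end (right panel) against distance in kb from the first or last low probe, with 1 symbol per probe and plant. Left of the left end all 4 plants lie together near 0, inside it plant 39 alone is low, and no probe lies in the 24.1 kb right of the last low probe.

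In the flanks the mean ratios of all 4 plants were near 0. The 434 probes left of the stretch averaged 0.055 in plant 39, 0.062 in plant 15, 0.055 in plant 35 and 0.077 in plant 45. On the other side, the 48 probes right of it averaged 0.062 in plant 39, 0.021 in plant 15, 0.077 in plant 35 and 0.074 in plant 45. Over plants, the left flank averaged 0.058 ± 0.005 in P05 and 0.066 ± 0.015 in P06, and the right flank 0.041 ± 0.029 in P05 and 0.075 ± 0.002 in P06 (SD, n = 2 each). A ratio beyond 1 in either direction was found at 0 of the 482 flank probes in any plant, and plant 39 was within 0.5 of 0 at 465 of them. The shares of such probes over the whole array are not given here, so these counts only describe the flanks.

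The small ratios of the flanks were shared by the plants. Over the 482 flank probes, the ratio of plant 39 correlated with that of plant 15 at r = 0.75, of plant 35 at r = 0.73 and of plant 45 at r = 0.75. These are descriptions across neighboring probes, which share the “M92-220” DNA, the dye orientation and the probe sequence and are not independent replicates. The lowest and the highest flank probe of plant 39, chosen after their values were seen, show it. Gm_CUST_P12256007 (chr14:14293955-14294014) had -0.95 in plant 39, -0.60 in plant 15, -0.71 in plant 35 and -0.82 in plant 45. Gm_CUST_P12256005 (chr14:14288164-14288223) had 0.80 in plant 39, 0.58 in plant 15, 0.25 in plant 35 and 0.77 in plant 45. Both kept their sign in all 4 plants.

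At the edges of the window the plants also agreed in sign. The last probe before the window, Gm_CUST_P12254708, had 0.57 in plant 39, 0.53 in plant 15, 0.29 in plant 35 and 0.41 in plant 45. Next, the first in it, Gm_CUST_P12254711, had 0.46 in plant 39, 0.44 in plant 15, 0.50 in plant 35 and 0.31 in plant 45. At the right, the last in it, Gm_CUST_P12256519, had -0.25 in plant 39, -0.40 in plant 15, -0.09 in plant 35 and -0.16 in plant 45. Beyond it, the first outside, Gm_CUST_P12256520, lay 414 kb further on and had -0.77 in plant 39, -0.60 in plant 15, -0.68 in plant 35 and -0.74 in plant 45. These 4 probes are given for where they lie, not for their values.

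Probes were sparse in and beyond the low stretch. There were 32.7 probes per 100 kb in the stretch, 80.7 in the left flank and 7.93 in the right flank, against 87.6 over chromosome 14. The array was spaced to enrich for genes, and the density is that of the design. Inside the stretch the widest gaps between probes were 44.7, 22.6 and 21.9 kb, and 15 groups of probes were formed by splitting at gaps over 5 kb. What happens to the DNA in the gaps was not measured.

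Many of the low ratios in plant 39 rested on Cy3 signals near background. At 52 of the 84 probes (61.9%) the Cy3 signal of plant 39 was not well above background, and this was so at 54 of the 566 window probes (9.54%) and at 1.31% of the probes of the array. In plants 15, 35 and 45 Cy3 was well above background at all 84 probes. The Cy5 signal of “M92-220” was well above background at all 84 probes on the array of plant 39, with a median of 868. The signal was thus missing from the mutant channel and not from the wild-type channel.

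At the 52 probes the processed Cy3 signal of plant 39 was 8.74 to 50.7 with a median of 15.3, and their ratios averaged -5.36 ± 1.32 (SD over probes), from -7.97 to -1.999. Such a ratio is only a bound. As a floor stood the lowest Cy3 signal that was well above background on that array (42.2), or the probe's own where higher. Against it, plant 39 was 1.46-fold to 121-fold lower than “M92-220” at these probes, with a median nominal bound of 17.0-fold. That floor is no strict limit, since a left flank probe with Cy3 of 62.4 on that array was not well above background. The nominal bounds can thus be too high. These bounds compare a single array's channels and are open to dye bias. Over the 52 probes, log2 Cy5 and the log2 ratio had r = -0.86 (Spearman's rho -0.82), so the brighter a probe was in “M92-220” the lower was its ratio. The correlation is across probes of 1 array that share the floor, and Cy5 enters both sides of it.

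The 3 lowest probes show what that floor does. Gm_CUST_P12256298 (chr14:14463720-14463779) had a log2 ratio of -7.97 in plant 39, 0.24 in plant 15, 0.19 in plant 35 and 0.07 in plant 45. Its Cy3 was 8.74 and its Cy5 2199 on the array of plant 39, a nominal bound of 52.1-fold. Gm_CUST_P12256389, beside the right end, had Cy3 of 11.1 and Cy5 of 2628, a nominal bound of 62.3-fold. Gm_CUST_P12256145 (chr14:14339362-14339416) had -7.38 in plant 39, 0.06 in plant 15, -0.06 in plant 35 and -0.06 in plant 45. Its Cy3 of 30.5 against Cy5 of 5111 gave the highest nominal bound, 121-fold, though its ratio was only the third lowest. The order of these ratios is therefore no order of DNA amount.

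At the other 32 probes the Cy3 signal of plant 39 was well above background although the ratio was low. Their ratios averaged -2.38 ± 1.33 (SD over probes), from -6.82 to -0.20, and the Cy3 signal was 60.5 to 4184 with a median of 184. The Cy3 signal stood at a median of 19.2% of the Cy5 signal, from 0.885% to 87.1%. Of the 14 probes of the stretch above -2, 13 belonged to these. Over all 32 probes, r between log2 Cy5 and the ratio was -0.27. These residual probes were brighter than the 52 others in “M92-220”, with a median Cy5 of 1387 against 736 on the array of plant 39. The other arrays showed the same order but are no independent evidence of it, since they carried the same probes. Over the 84 probes, log2 Cy5 on the array of plant 39 correlated with that on the other arrays at r = 0.88 to 0.91. The median Cy5 of the residual probes against the others was 1239 against 711 on the array of plant 15, 1267 against 704 on that of plant 35 and 1235 against 690 on that of plant 45. The residual probes and the others were split on the Cy3 signal of plant 39. At an equal share of Cy5, a brighter probe passes that background test more easily. The difference in Cy5 can thus be set in part by the split, and no test was run on it.

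The mean ratio of the residual probes was -0.001 in plant 15, 0.047 in plant 35 and 0.006 in plant 45, and that of the 52 others was 0.077, 0.091 and 0.159 in the same order of plants. In the plants without the low stretch, both kinds of probe thus lay near 0, and their Cy3 medians were 1273 to 1385 for the residual probes and 749 to 794 for the others.

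**Figure D3:**
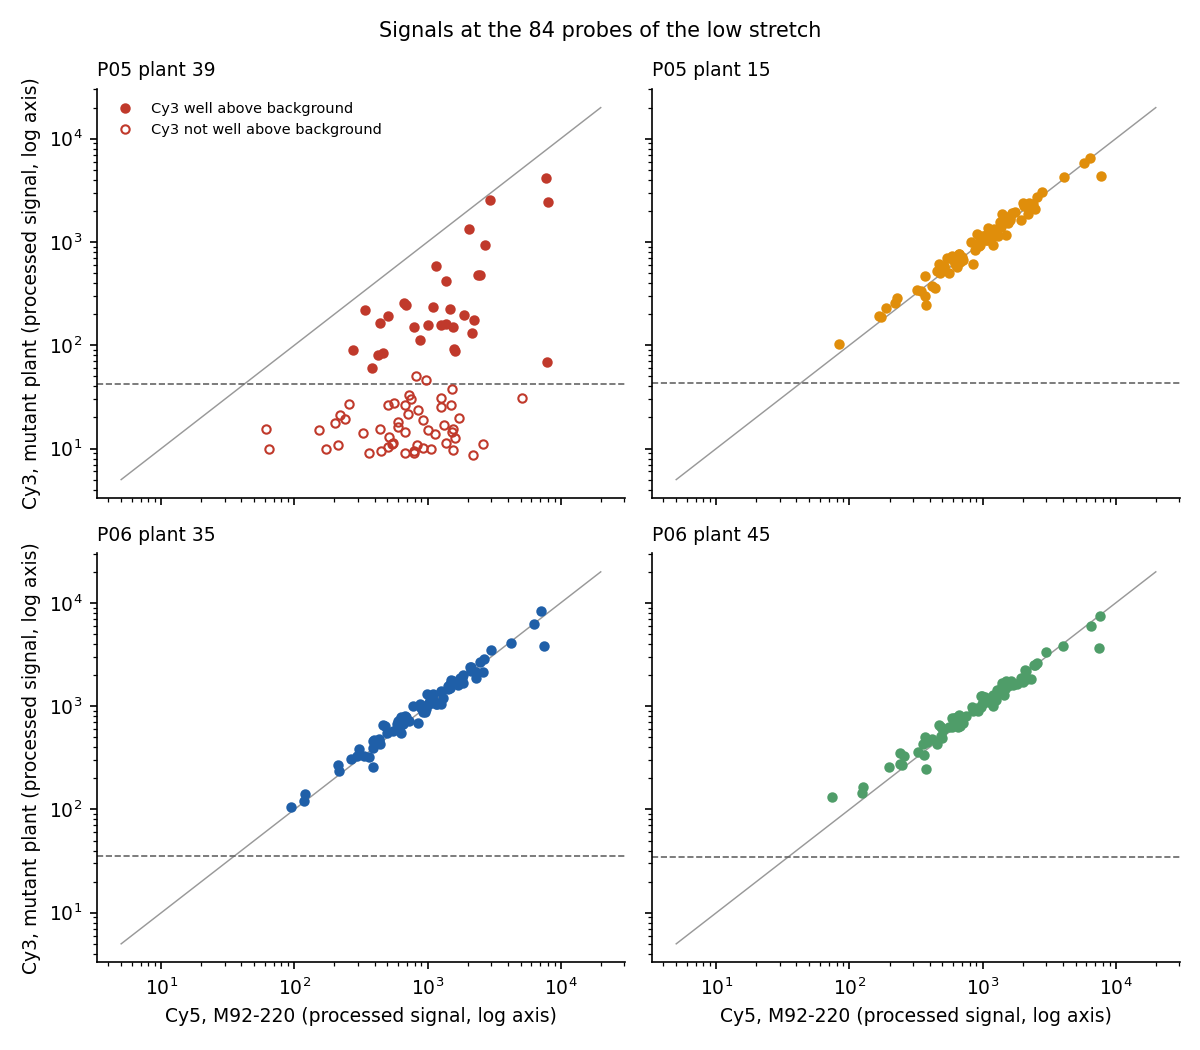
Processed Cy3 signal of the mutant plant against processed Cy5 signal of M92-220 (both log axes) at the 84 probes of the low stretch, 1 panel per array; filled points have Cy3 well above background, open points do not, the solid line marks equal signals and the dashed line the lowest Cy3 signal well above background. In plant 39, 52 points are open and 32 filled, nearly all far under the solid line, while in plants 15, 35 and 45 all 84 points are filled and follow it.

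The ratio of plant 39 was above -1 at 5 probes of the stretch. Closest to 0 was Gm_CUST_P12256386, described above, where Cy3 was 2561 and Cy5 2951, so that Cy3 stood at 87.1% of Cy5. Gm_CUST_P12256219 (chr14:14398760-14398819) had -0.60 in plant 39, 0.15 in plant 15, 0.10 in plant 35 and -0.04 in plant 45, with Cy3 at 66.0% of Cy5 in plant 39. Gm_CUST_P12256323 (chr14:14472727-14472786) had -0.62 in plant 39, 0.33 in plant 15, 0.26 in plant 35 and 0.45 in plant 45, with Cy3 at 65.1% of Cy5 in plant 39. At the last of these the other plants were above 0, so plant 39 was further below them than its own ratio says.

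Gm_CUST_P12256216 (chr14:14391320-14391379) had -0.89 in plant 39, 0.01 in plant 15, -0.01 in plant 35 and -0.12 in plant 45. It was among the brightest probes of the stretch, with Cy3 of 4184 and Cy5 of 7779 on the array of plant 39. Gm_CUST_P12256237 (chr14:14413612-14413671) had -0.97 in plant 39, 0.01 in plant 15, 0.03 in plant 35 and 0.02 in plant 45. At all 5 probes plant 39 was the lowest of the plants, by 0.17 to 0.98 on the log2 scale against the next lowest. Whether these probes bind related sequence elsewhere in the genome was not tested.

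The residual probes were not spread evenly along the stretch. Groups 4 to 6 of the 15 groups, which span 33.7 kb from chr14:14391320-14424982, held 24 probes, and Cy3 of plant 39 was well above background at 18 of them (75.0%), against 14 of the 60 probes in the other groups (23.3%). Their ratios in plant 39 averaged -2.98 (SD over probes 1.75) against -4.72 (SD over probes 1.83) in the other groups, and 9 of the 24 were above -2 against 5 of the 60. Median Cy5 in groups 4 to 6 against the other groups was 931 against 839 on the array of plant 39, 1040 against 949 on that of plant 15 and 997 against 920 on that of plant 35, but 866 against 917 on that of plant 45, so the arrays gave no common order. These groups were chosen after their values were seen, and the difference was not tested. In the other plants groups 4 to 6 averaged 0.079 in plant 15, 0.125 in plant 35 and 0.114 in plant 45.

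Within group 6, chr14:14409218-14424982, the 21 probes ran from -6.82 to -0.97 in plant 39 and averaged -3.21, so that probes near the floor and residual probes lay side by side. Group 1, the 8 probes at the left end, averaged -5.93 with 1 residual probe. Group 9, the 12 probes of chr14:14461013-14467114, averaged -5.13 with 2. Group 4 is the single probe Gm_CUST_P12256216, and group 5 is a pair that averaged -1.66. The means of plants 15, 35 and 45 over the same groups ran from -0.52 to 0.29, and they were below -0.3 in all 3 of these plants only in group 12, a pair of probes.

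**Figure D4:**
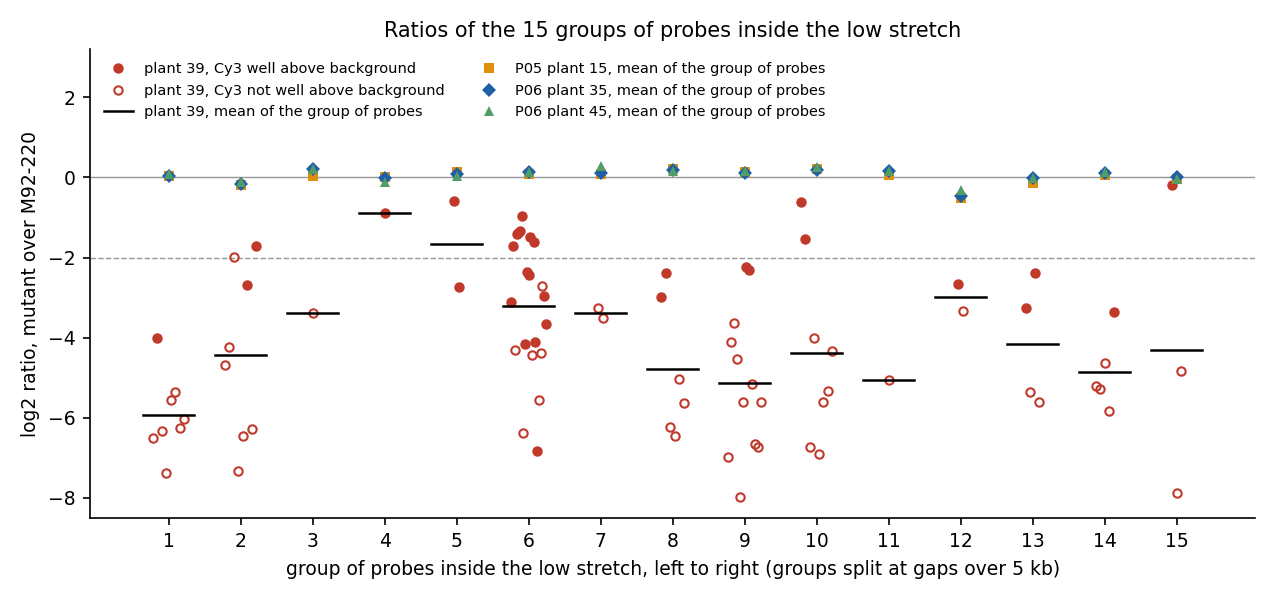
Log2 ratio of mutant over M92-220 (vertical axis) in the 15 groups of probes of the low stretch, from left to right; circles are single probes of plant 39, filled where Cy3 was well above background, bars are the means of plant 39 and the other symbols the means of plants 15, 35 and 45. Groups 4 to 6 hold 18 filled circles of 24, the other groups 14 of 60, and the means of the other plants stay between -0.52 and 0.29.

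A few probes of the stretch were also low in the plants without it. Gm_CUST_P12256212 (chr14:14359003-14359060) had -1.71 in plant 39, -0.83 in plant 15, -0.96 in plant 35 and -1.02 in plant 45, and was the only probe of the window at or below -1 outside plant 39. Gm_CUST_P12256352 (chr14:14533541-14533587), in group 12, had -2.65 in plant 39, -0.60 in plant 15, -0.61 in plant 35 and -0.59 in plant 45. Its neighbor Gm_CUST_P12256355 (chr14:14533849-14533908) had -3.33 in plant 39, -0.45 in plant 15, -0.30 in plant 35 and -0.04 in plant 45. At 79 of the 84 probes plants 15, 35 and 45 were all within 0.5 of 0, as they were at 457 of the 482 flank probes. The share over the whole array is not given here, so these counts are a description only.

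The lines were compared with limma, with 1 mean per line and treat against a log2 ratio of 1, and p-values adjusted by Benjamini-Hochberg over 951298 probes. At an adjusted p under 0.05, 0 window probes were lower than “M92-220” in P05 (2 at an unadjusted p under 0.05), against 0.00463% of all probes. In P06, 0 were lower (0 unadjusted), against 0.0875% of all probes, and 0 were higher (0 unadjusted), against 0.00841%. For P05 minus P06, 0 were lower (0 unadjusted), against 0.00021% of all probes. At the first low probe, Gm_CUST_P12256133, the mean was -3.19 in P05 and 0.11 in P06 (SE 1.29 each), which shows how the gap between the P05 plants enters the error. The P05 test thus says little about plant 39 itself.

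Without plant 15, plant 39 stood alone for P05 and was taken to vary like the P06 plants, and limma's treat then called 75 window probes lower than “M92-220”, against 0.0556% of all probes, and 75 lower than P06, against 0.0477% of all probes. The window was selected for this low ratio, so these calls describe plant 39 and are no independent test. Without plant 39, 0 window probes were called lower in P05, against 0.0624% of all probes, a share at which few calls would fall among 566 probes.

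With limma's eBayes against 0 and a mean beyond 1, 4 window probes were called lower in P05, against 0.06% of all probes, and 0 in P06, against 0.215%. The P05 means hold the ratios of plant 39 for which the window was selected, so these calls too are a description. Plant 15 was below 0 at all 4 of them. Gm_CUST_P12256212 averaged -1.27 in P05 and -0.99 in P06. Gm_CUST_P12256352 averaged -1.63 in P05 and -0.60 in P06. The other pair, Gm_CUST_P12256191 and Gm_CUST_P12256355, averaged -1.14 and -1.89 in P05 and -0.13 and -0.17 in P06. None of them is among the 3 lowest probes of plant 39.

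The places of the low probes on the slide were also described, and an effect of place was not tested. The 84 probes lay in rows 6 to 1064 of 1068 and columns 15 to 871 of 912. On the array of plant 39 the 1163 probe spots next to them, with marked outlier spots left out, had a median log2 ratio of -0.005. At or below -2 were 0 of these spots.

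The stretch was set beside 2 other low stretches, with a lower mean ratio on chromosome 7 and a higher mean ratio on chromosome 14. On the array of plant 39, median Cy5 was 868 here and 1073 in the chromosome 7 stretch. In the other chromosome 14 stretch it was 1231 on the array of plant 15, 1081 on that of plant 35 and 1085 on that of plant 45. Since Cy5 sets how low a ratio near background can be read, these means give no order of DNA amount. In plant 39 the stretch chr7:42193750-42352938 (159 kb, 261 probes with a value) averaged -4.68, and 11.1% of its probes were above -2 and 32.2% had Cy3 well above background, against 16.7% and 38.1% here. It was covered by 164 probes per 100 kb against 32.7 here. The stretch chr14:26774074-26801907, with 18 probes, was low in the other plants: it averaged -3.13 in plant 15, -3.05 in plant 35 and -3.10 in plant 45, and 0.03 in plant 39. Of its 18 probes, 12 had Cy3 well above background in each of these plants, and the share above -2 was 33.3% in plant 15, 38.9% in plant 35 and 33.3% in plant 45. Of the 2 chromosome 14 stretches compared, plant 39 was thus low only in the longer and the other plants only in the shorter. Of the 89 chromosome 14 probes of plant 39 at or below -2, 70 lay in the window, and the others were not described here. These stretches were all selected on the same ratios, so their differences were not tested.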

How the data were processed

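For every plant the authors deposited a scanner table written by Agilent Feature Extraction 12.0.0.7. It gives the spot intensity of each dye, background-subtracted and dye-normalized by that software, and a log10 ratio of Cy5 over Cy3 with its error, which here only weighted the interval search. They also deposited a table of log2 ratios, which equals the scanner values less 1 constant per array (within 0.01 for at least 99.98% of probes). The methods name Agilent Genomic Workbench with ADM-2. All columns of the table were matched to a plant.

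Outlier spots marked by the software (210 to 861 per array of 963719 spots) were left out, spots of a probe were averaged, and log2 Cy3 over Cy5 was centered on each array's median. The 72 window probes listed under Chr014 were taken as chromosome 14, since the numbers in their names follow position. Intervals needed a score of 6, 3 probes and a mean at or below -2. Tests used limma (version 3.58.1, R 4.3.3), and both steps were tested on simulated data. The simulated data for limma lowered both plants of a line, so they did not cover a line in which a single plant is low. P-values measure the spread between single plants, each set against “M92-220” DNA. The spread of “M92-220” itself was not estimated on its own. Other steps were run in numpy 2.4.6, numba 0.67.0 and pandas 2.3.3 under Python 3.11.15.

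Probes were named if they were the 3 nearest on each side of each end, the 3 lowest in plant 39, above -1 in plant 39 inside the stretch, beyond 1 in the flanks, or called by limma, and others are said to be chosen after their values were seen or are given for their position or for the threshold. The members and these rules were chosen with earlier results of these data known. Alternatives were another background correction (normexp, offset 50, on the median signals, since these are what the files hold), centering, spot filters, the deposited log2 table, leaving out Chr014, other thresholds, other tests and leaving out each array.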

Additional observations from a re-analysis of the deposited data

How the results depend on the processing

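Of 78 values of 7 results under the alternatives, 71 were the same, 7 moved and 0 reversed. A mean was the same within 0.027, the SD of the means of plants 15, 35 and 45, and a count or length within 1.5 times. Most of the values that were the same are limma counts that stayed at 0, so the tally says little about the depth of the stretch. With normexp and an offset of 50, 42 window probes of plant 39 were at or below -2 and the mean of the stretch was -2.02. The mean was -4.17 without the Chr014 probes, and the median in place of the mean was -4.32. The span was 247 kb under normexp, runs of probes, a score of 10 and at least 5 probes, and 257 kb otherwise. Called by limma as lower in P05 were 4 window probes with eBayes against 0, and 0 to 75 when each array was left out, with 75 without plant 15. For P05 minus P06 the range was also 0 to 75, with 75 without plant 15. For P06, 0 window probes were called lower or higher under every alternative run. No paired analysis was possible because no plant number is shared between P05 and P06. Leaving out a replicate was also not possible for the results of plant 39, which has 1 array. Cy3 near background limits how low a ratio can be read, and 2 plants per line limit every test.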
